A study of Mus musculus with 12 samples.

Results

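The genes described here are 10 long noncoding RNAs of the mouse: Malat1, Neat1, Meg3, Rian, Mirg, Kcnq1ot1, Miat, Pvt1, Snhg11 and Gas5. They were chosen by name, with earlier results of these data known. Each was found by its Entrez gene number among the 36528 gene numbers of the deposited tables. The filter on low counts kept 9 of the 10, and 10022 genes in all, and Mirg was the member it removed. RNA was sequenced from Cd11b+ myeloid cells sorted from the brains of male mice 6 months old. A group of 6 libraries carried the genotype hMAPT-P301S (P301S), a transgene for human tau with a mutation known from inherited frontotemporal dementia. The other 6 libraries came from Non-Transgenic littermates (NonTg), which had no transgene. The labels used here do not give the promoter of the transgene, the strain background or which libraries share a litter, and no label ties a library to 1 animal. The p-values therefore measure the spread between these samples.

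A long noncoding RNA is a transcript that is not translated into a conserved protein and acts, where a role is known, as RNA. Malat1 stays in nuclear speckles, where splicing factors collect, and Neat1 is the scaffold of paraspeckles, nuclear bodies built on it. Meg3, Rian and Mirg are expressed from the maternal chromosome of the imprinted Dlk1-Dio3 domain, and Kcnq1ot1 is the paternally expressed RNA that silences the imprinted Kcnq1 domain. Snhg11 and Gas5 carry small nucleolar RNAs in their introns, Miat is best known from neurons and the retina, and Pvt1 lies beside the Myc oncogene.

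RefSeq promoters (build GRCm38.p6, 250 bases before to 50 after the start of the transcript) matched 8 of the 10 members, and Neat1 and Pvt1 had no entry in the table used. Those of Malat1 and Meg3 are printed because these members passed the test between genotypes, and that of Gas5 because it was the only other member promoter with the same match as Meg3. Capitals mark the palindromic cAMP response element TGACGTCA, and each promoter is written 5′ to 3′ on the strand of its gene. The Malat1 window lies at chr19:5802623-5802922 on the minus strand. That of Meg3 (its first listed start) lies at chr12:109540746-109541045 on the plus strand, and that of Gas5 (its second listed start) at chr1:161034916-161035215 on the plus strand.
Malat1: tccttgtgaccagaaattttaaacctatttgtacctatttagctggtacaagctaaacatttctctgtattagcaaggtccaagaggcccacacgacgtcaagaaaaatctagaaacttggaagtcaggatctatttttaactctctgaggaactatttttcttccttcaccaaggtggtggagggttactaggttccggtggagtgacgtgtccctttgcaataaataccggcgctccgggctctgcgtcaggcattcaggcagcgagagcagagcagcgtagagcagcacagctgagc
Meg3: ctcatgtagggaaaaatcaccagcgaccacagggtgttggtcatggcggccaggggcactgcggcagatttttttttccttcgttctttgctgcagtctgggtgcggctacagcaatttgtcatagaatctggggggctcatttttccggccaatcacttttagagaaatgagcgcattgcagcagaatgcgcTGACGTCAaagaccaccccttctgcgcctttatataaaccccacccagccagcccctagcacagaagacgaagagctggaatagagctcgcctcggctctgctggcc
Gas5: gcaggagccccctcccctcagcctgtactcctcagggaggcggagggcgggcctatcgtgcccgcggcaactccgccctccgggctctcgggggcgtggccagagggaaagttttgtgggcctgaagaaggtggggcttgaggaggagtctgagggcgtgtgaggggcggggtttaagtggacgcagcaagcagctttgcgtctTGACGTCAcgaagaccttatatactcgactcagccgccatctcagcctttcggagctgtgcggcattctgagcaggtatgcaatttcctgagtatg

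The letters TGACGTCA, searched on both strands, occurred in this Meg3 promoter 57 bases before the start and in this Gas5 promoter 46 bases before it. The same letters were found in 1.79% of the 32851 promoters of 300 bases in the table. Meg3 also held the TATA letters TATAAA on both strands, at 25 and 29 bases before the start, in matches that overlap each other. TATAAA was found in 13.6% of all promoters. Meg3 held CCAAT 100 bases before the start, Mirg held it once and Kcnq1ot1 held it at 188, 148 and 67 bases before the start, against 37.4% of all promoters with at least 1 match. The windows of Malat1, Rian, Miat and Snhg11 held none of these 3 motifs. Nor did the window at the second listed start of Meg3 or at the first listed start of Gas5, which are not printed. The share of G and C was 47% in the Malat1 window, 53.7% in that of Meg3 and 62% in that of Gas5, with a median of 52.7% over all promoters. These matches describe letters and do not show that a factor binds.

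Depth ranged from 1196069 to 4145069 counts per library. The defining microglial markers were present in all 12 libraries, with 9 of 9 tested, and their summed level was 10892 to 14495 CPM (counts scaled to a common library size, with TMM factors) in NonTg and 5598 to 7690 CPM in P301S, and 5 of the 9 were lower in P301S. In RNA from a sorted population, fewer cells of a type and less RNA per cell cannot be told apart. Markers of other cells were detected too, each list at a lower sum than that of microglia. Oligodendrocyte markers summed to 184 to 285 CPM in NonTg and 183 to 487 CPM in P301S, and neuronal markers are given below. Border macrophage markers summed to 10.1 to 62.1 CPM in NonTg and 8.04 to 24 CPM in P301S. Monocyte markers reached 51.9 CPM in NonTg and 26.5 CPM in P301S, and neutrophil markers 38.8 and 23.2 CPM. Endothelial markers summed to 2.44 to 108 CPM in NonTg and 0.271 to 23.8 CPM in P301S, with 1 of 5, Cldn5, at 0 throughout. T and natural killer cell markers summed to 0 to 14.6 CPM in NonTg and 0 to 4.44 CPM in P301S, with 1 of 4, Nkg7, at 0 throughout. Erythroid markers summed to 1.18 to 16.2 CPM in NonTg and 0 to 5.42 CPM in P301S, with 1 of 4, Hba-a1, at 0 throughout. Of the 6 tested astrocyte markers 1, Gfap, was higher in P301S (3.14 and 19.8 CPM, log2 fold change 2.65, SE 0.67, adjusted p = 0.0199), while the summed astrocyte level ran from 124 to 692 CPM in NonTg and from 154 to 709 CPM in P301S, and its part in the results below was not tested. Mouse Mapt was at 6.31 ± 3.33 CPM in NonTg and 5.21 ± 5.22 CPM in P301S (SD, n = 6), and it does not check the human transgene.

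Malat1 and Meg3 were lower in P301S than in NonTg, Neat1 and Pvt1 had higher means that did not pass the test, and Rian, Kcnq1ot1, Miat, Snhg11 and Gas5 did not pass either. By edgeR's quasi-likelihood test with Benjamini-Hochberg adjustment over the 10022 genes, 2 of 9 tested members were lower and 0 were higher. Over all tested genes, 1.50% were lower and 2.37% higher. The members were chosen with earlier results of these data known, so this comparison is a description. At an unadjusted p under 0.05, edgeR's test also separated Snhg11 (lower) and Neat1 (higher), a limit that 7.74% of all tested genes passed as lower and 8.02% as higher. DESeq2 likewise called 2 members lower and 0 higher. Of the 9 members, 6 had a negative log2 fold change and the median was -0.41, beside a median of -0.0192 and 51.2% negative over all tested genes. Among the 523 tested noncoding RNA genes, 61% had a negative log2 fold change and the median was -0.22, with 18 lower and 4 higher, while the 8867 protein-coding genes had a median of -0.00052, with 115 lower and 223 higher. No tested member had every P301S library below every NonTg library, a pattern that 1.05% of all tested genes showed.

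**Figure D1:**
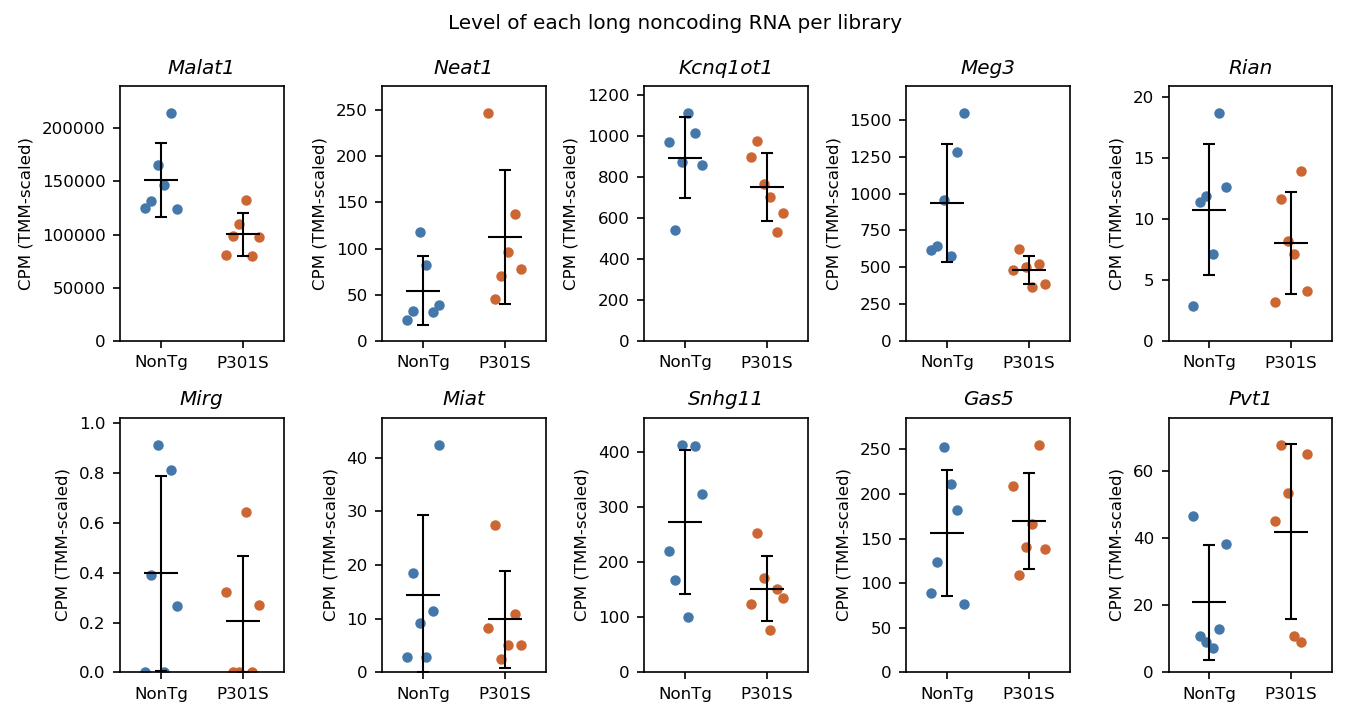
Level of the 10 long noncoding RNAs in CPM scaled by TMM factors, 1 point per library, with the mean and SD of 6 libraries as bars and a separate vertical axis for each gene. In P301S, 5 of 6 libraries lay below the lowest NonTg library for both Malat1 and Meg3, and the groups overlapped for all 10 genes.

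**Figure D2:**
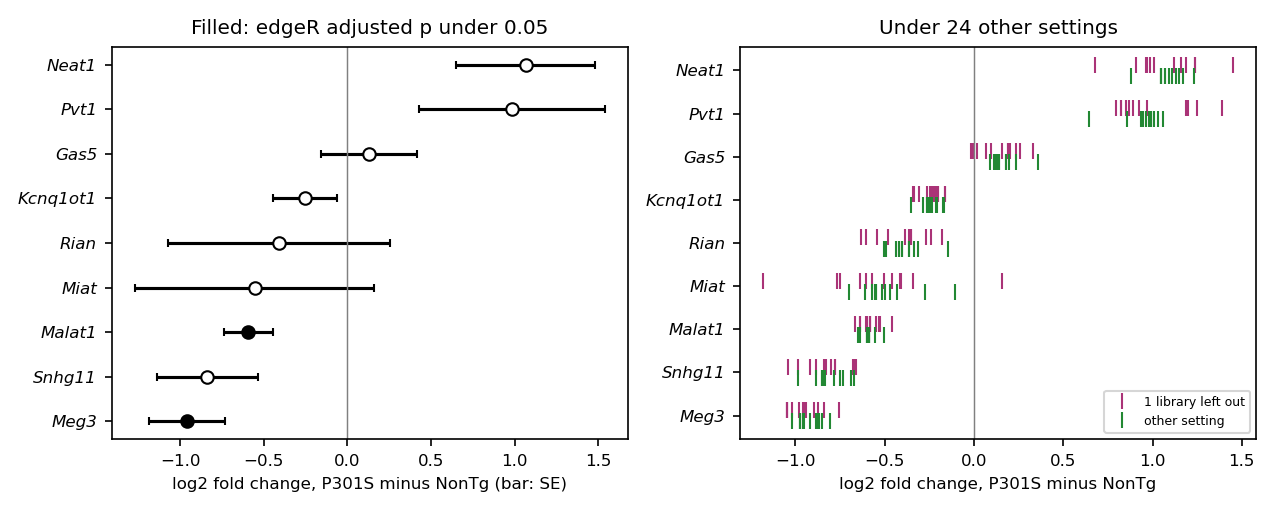
Left, log2 fold change of each tested member (P301S minus NonTg) with its standard error, filled where the adjusted p was under 0.05. Right, the same fold change under 24 other settings, where Malat1, Meg3, Neat1, Rian, Kcnq1ot1, Pvt1 and Snhg11 kept their sign in all 24, Miat in 23 and Gas5 in 22.

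Malat1 (Entrez 72289, chromosome 19, 5795690 to 5802672) is among the most abundant nuclear transcripts of mammalian cells. In NonTg its lowest, median and highest levels were 124088, 139126 and 213955 CPM. In P301S they were 79702, 98443 and 132878 CPM. The libraries P301S 5 and P301S 1 were the lowest of all 12, and the groups overlapped through P301S 4 (132878 CPM), which lay above 3 NonTg libraries. Malat1 fell by 0.59 on the log2 scale (SE 0.15), to 0.663 times the NonTg level (95% interval 0.543 to 0.808, adjusted p = 0.0162). The call was lost without NonTg 5 (-0.46, adjusted p = 0.0769), P301S 1 (adjusted p = 0.0528), P301S 5 (0.057) or P301S 6 (0.0524), with limma-voom (0.0659), and with limma on the log2 adjusted RPKM (0.179 with a pseudocount of 1).

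Malat1 had the highest count of any gene in all 12 libraries, so its level sets part of the scale on which other genes are read. Its share of all counts lay between 12.37% and 19.24% in NonTg and between 7.816% and 10.64% in P301S, with no overlap. Genes of the mitochondrial genome took 15.49% ± 3.358 of counts in NonTg and 25.03% ± 6.908 in P301S (SD, n = 6, exact permutation adjusted p = 0.02597 over 4 measures), so the make-up of the total differed as well. The total count itself, another of these measures, did not pass the same test (adjusted p = 0.09524). With the mitochondrial genes left out, Malat1 made up 17.48% ± 3.116 of the remaining counts in NonTg and 12.77% ± 1.739 in P301S. That difference of -4.718 percentage points had p = 0.004329 in an exact permutation test (two-sided, 924 assignments of libraries, adjusted p = 0.008658), and the groups overlapped, with a highest P301S share of 15.15% and a lowest NonTg share of 14.49%. With those genes left out of the library size in the fit, the number of members lower was again 2.

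**Figure D3:**
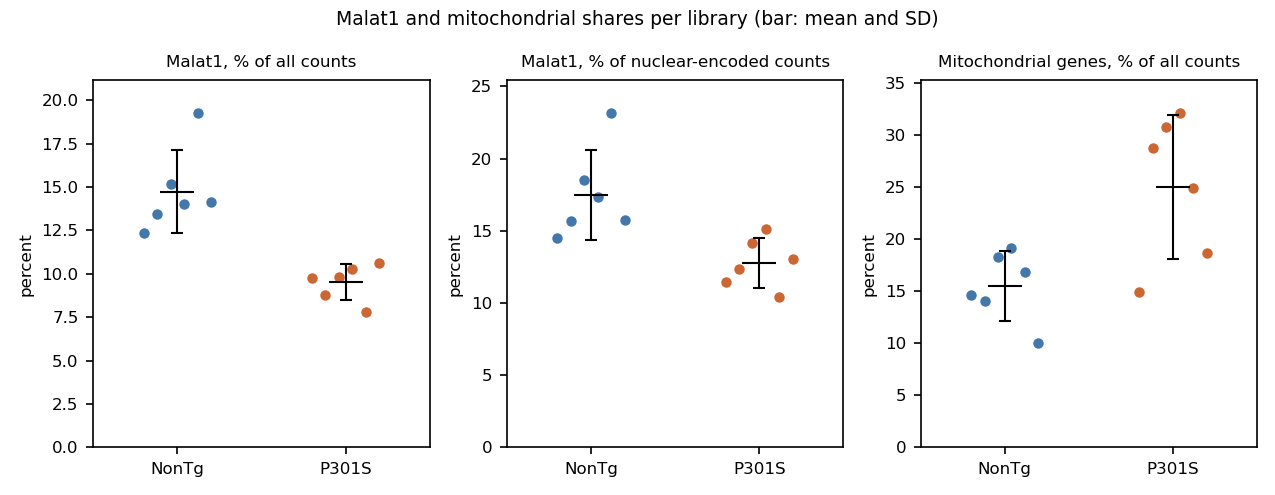
Malat1 as a percent of all counts and of nuclear-encoded counts, and mitochondrially encoded genes as a percent of all counts, 1 point per library with the mean and SD of 6 libraries. The Malat1 share of all counts ran from 7.816% to 10.64% in P301S and from 12.37% to 19.24% in NonTg, and the 2 ranges of the nuclear-encoded share overlapped.

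Neat1 (Entrez 66961, chromosome 19, 5824708 to 5845480) lies 22036 bases from Malat1. The NonTg libraries had 22.73, 35.61 and 117.9 CPM at the lowest, the median and the highest. The P301S libraries had 45.56, 87.11 and 246.6 CPM. Every P301S library was above the NonTg median, P301S 1 (246.6 CPM) and P301S 5 (138 CPM) were above the highest NonTg library, and NonTg 3 and NonTg 4 lay inside the P301S range. The log2 fold change was 1.07 (SE 0.41), a fold of 2.09 with a 95% interval of 1.19 to 3.67, and it did not pass the adjustment (adjusted p = 0.171). It passed without NonTg 3 (1.45, adjusted p = 0.0443) and with no filter on low counts (1.17, adjusted p = 0.0243), while without P301S 1, the highest library, it was 0.68 (adjusted p = 0.494). Malat1 and its neighbour had fold changes of opposite sign, and the difference between them was not tested.

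The coding gene on the Neat1 side of this pair and the listed genes for proteins of both nuclear bodies, measured as RNA, did not pass the test. That gene, Frmd8, had a log2 fold change of 0.90 (SE 0.50, adjusted p = 0.407). Of the 12 listed genes for paraspeckle proteins 11 were tested and 0 were called, with a median log2 fold change of -0.167. The smallest p-values there belonged to Hnrnpk, an RNA-binding protein, at -0.96 (adjusted p = 0.29) and Smarca4, the ATPase of a chromatin remodelling complex, at 0.32 (adjusted p = 0.683). Of the 15 genes for nuclear speckle proteins 15 were tested and 0 were called, with a median of -0.162. The splicing factors Srsf1, at -0.74 (adjusted p = 0.176), and Srsf5, at -0.56 (adjusted p = 0.287), had the smallest p-values.

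Meg3 (Entrez 17263, chromosome 12, 109540996 to 109571729) is the first maternally expressed RNA of its imprinted domain and the member with the lowest adjusted p. Lowest, median and highest NonTg levels were 574.3, 801.4 and 1545 CPM. The P301S levels were 365.3, 491.6 and 625.6 CPM. The NonTg libraries were spread over 2.69-fold and the P301S libraries over 1.71-fold, and P301S 2 was the only P301S library above the lowest NonTg library. Meg3 fell by 0.96 on the log2 scale (SE 0.23), to 0.513 times the NonTg level (95% interval 0.377 to 0.698, adjusted p = 0.0115). The call was lost without NonTg 6, the highest library (-0.76, adjusted p = 0.0569), and with limma on the log2 adjusted RPKM (adjusted p = 0.0655 with a pseudocount of 1).

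The next maternally expressed RNAs of the domain were scarce. Rian (Entrez 75745, chromosome 12, 109603945 to 109661716), a host of small nucleolar RNAs, starts 32216 bases beyond Meg3. Its levels in NonTg were 2.841 at the lowest, 11.63 at the median and 18.66 CPM at the highest, and in P301S they were 3.215, 7.628 and 13.96 CPM. The groups overlapped almost fully, and the log2 fold change was -0.41 (SE 0.66, fold 0.752, 95% interval 0.305 to 1.85, adjusted p = 0.845), on 7 to 47 counts per library. With 1 library left out it lay between -0.64 (without P301S 5) and -0.18 (without NonTg 5). Mirg (Entrez 100040724, chromosome 12, 109734981 to 109749458), a host of a microRNA cluster that starts 73265 bases beyond Rian, had 4 counts over the NonTg libraries and 3 over the P301S libraries, with at most 1 in a library. At this depth no difference in Mirg was detectable. A level of 3 counts corresponded to 1.22 CPM in NonTg 1.

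Small RNAs and coding genes that share this locus had few counts. The 10 microRNA genes inside Mirg had 6 counts in all, and the 7 small nucleolar RNA genes inside Rian that the tables list had 78. Rtl1, a coding gene that RefSeq draws across both Meg3 and Rian, had 135 counts against 20770 for Meg3, and with strand not stated its reads and theirs cannot be told apart. Dio3, the thyroid hormone deiodinase at the far end, was at 0 in all libraries, and Dlk1, at the near end, was too low to test. Of the 5 coding genes listed for the domain, 1 was tested, Wdr25, and it did not pass (1.24, adjusted p = 0.51).

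Kcnq1ot1 (Entrez 63830, chromosome 7, 143213111 to 143296547) lies inside its coding neighbour Kcnq1 on the other strand. Levels in NonTg had a lowest, median and highest value of 538.4, 920.4 and 1109 CPM. Those in P301S had 532, 733.5 and 973.5 CPM. The groups shared most of their range, and NonTg 2 lay far below the other NonTg libraries. The log2 fold change was -0.25 (SE 0.19, fold 0.839, 95% interval 0.648 to 1.08, adjusted p = 0.584), and it lay between -0.34 and -0.16 with 1 library left out. The potassium channel gene Kcnq1 itself had 21 counts over all libraries against 23645 for Kcnq1ot1. Of the 10 genes listed for the imprinted domain 2 passed the count filter and 0 were called: the tetraspanin Cd81 at 0.06 (adjusted p = 0.953) and the histone chaperone gene Nap1l4 at -0.04 (adjusted p = 0.981). Phlda2 was at 0 in every library.

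Snhg11 (Entrez 319317, chromosome 2, 158375713 to 158386474), a small nucleolar RNA host known from neurons, had a lower mean in P301S that did not pass. In NonTg its lowest, median and highest levels were 101.2, 272.8 and 413.9 CPM. In P301S they were 77.46, 144.4 and 253.5 CPM. All 6 P301S libraries lay below the NonTg median, and 1 lay below the lowest NonTg library. The log2 fold change was -0.84 (SE 0.30, fold 0.56, 95% interval 0.37 to 0.845, adjusted p = 0.132).

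Gas5 (Entrez 14455, chromosome 1, 161034601 to 161038539) accumulates when growth stops and is degraded by nonsense-mediated decay when it is translated. The NonTg libraries had 76.75, 152.9 and 252.2 CPM at the lowest, the median and the highest. The P301S libraries had 109.6, 153 and 255 CPM. The medians were nearly equal, and the log2 fold change was 0.13 (SE 0.29, fold 1.09, 95% interval 0.741 to 1.61, adjusted p = 0.897). Gas5 overlaps the end of Zbtb37, which had 857 counts in all against 4516 for Gas5. Of 17 other small nucleolar RNA hosts 5 were tested and 0 were called (median 0.094), with Snhg17 at 0.58 (adjusted p = 0.681) and Snhg5 at -0.60 (adjusted p = 0.712). All 10 nonsense-mediated decay genes were tested and 0 were called (median 0.0813), with the kinase complex subunit Smg9 at 1.40 (adjusted p = 0.172) and the helicase Upf1 at -0.90 (adjusted p = 0.305).

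Pvt1 (Entrez 19296, chromosome 15, 62037986 to 62260215) begins 47625 bases from Myc. Lowest, median and highest NonTg levels were 7.126, 11.99 and 46.68 CPM. The P301S levels were 9.199, 49.27 and 67.79 CPM. None of the 12 libraries lay between 12.98 and 38.38 CPM: 4 P301S libraries and 2 NonTg libraries were above this gap and the other libraries were below it. The log2 fold change was 0.98 (SE 0.55, fold 1.98, 95% interval 0.933 to 4.2, adjusted p = 0.409). Myc, a transcription factor of growth, was at 57.5 ± 12.5 CPM in NonTg and 102 ± 39 CPM in P301S (SD, n = 6; log2 fold change 0.83, SE 0.32, adjusted p = 0.159). A pseudogene inside the Pvt1 span, Macroh2a3, had 585 counts in all against 1102 for Pvt1.

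Miat (Entrez 330166, chromosome 5, 112213228 to 112228948) was low in both genotypes. Levels in NonTg had a lowest, median and highest value of 2.841, 10.25 and 42.4 CPM. Those in P301S had 2.549, 6.762 and 27.39 CPM. NonTg 6 and P301S 2 were the highest of their groups, and the spread within a group was 14.9-fold in NonTg and 10.7-fold in P301S. The log2 fold change was -0.56 (SE 0.72, fold 0.681, 95% interval 0.258 to 1.8, adjusted p = 0.795), and it was 0.16 without NonTg 6. The nearest coding gene, Cryba4, had a log2 fold change of -2.44 (SE 0.89, adjusted p = 0.136), and Ralgapb, beside Snhg11, had 0.45 (adjusted p = 0.504).

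Neuronal RNA in the sorted cells varied with some of these members. The 15 neuronal markers (9 tested, 0 called, 8 with a negative log2 fold change, median -0.574) summed to between 212 and 546 CPM in NonTg and between 165 and 531 CPM in P301S. The highest sums were those of NonTg 6 (546 CPM) and P301S 2 (531 CPM). The same libraries had the highest Meg3 (1545 and 625.6 CPM) and Miat (42.4 and 27.39 CPM) of their groups, and P301S 2 also had the highest Snhg11 (253.5 CPM) in P301S. None of the 15 markers was at 0 in every library, and their part in the levels of Meg3, Snhg11 and Miat was not tested. Without NonTg 6 alone, the Meg3 call was lost in edgeR's test (-0.76, adjusted p = 0.0569). A comparison with both libraries left out was added after the data were seen. Since both were the highest for Meg3 in their groups, that choice was not independent of Meg3. With both left out, the log2 fold change was -0.85 for Meg3 (adjusted p = 0.0424) and -0.64 for Malat1 (adjusted p = 0.0395). The neuronal sums of the remaining libraries were 212 to 403 CPM in NonTg and 165 to 321 CPM in P301S.

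**Figure D4:**
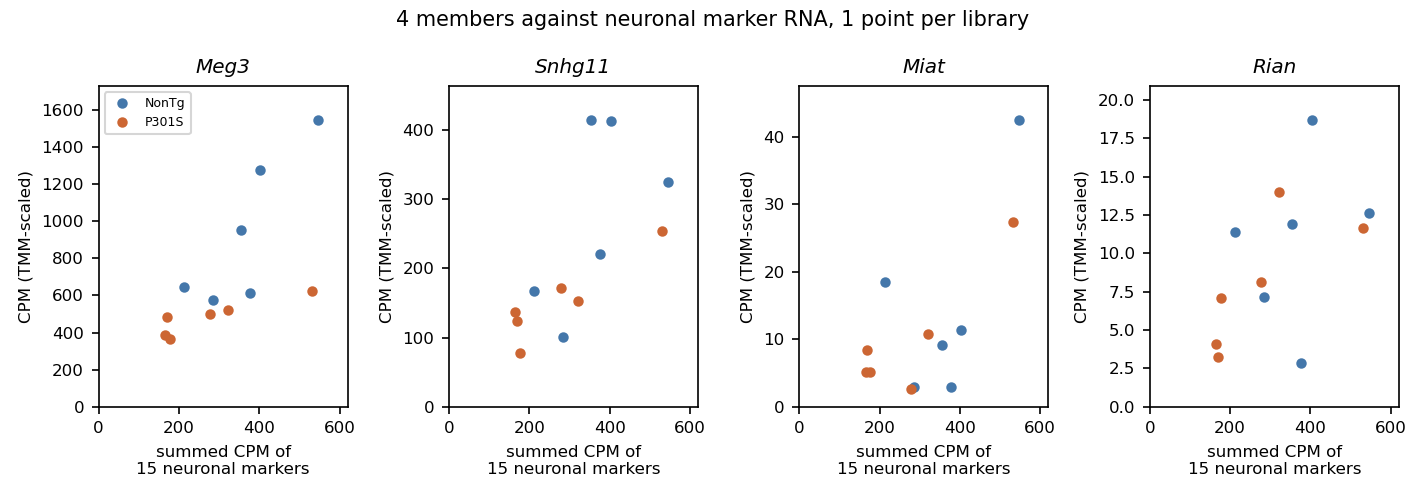
CPM of Meg3, Snhg11, Miat and Rian (vertical axes) against the summed CPM of 15 neuronal markers (horizontal axes), 1 point per library, blue for NonTg and orange for P301S. The libraries farthest to the right are NonTg 6 (546 CPM) and P301S 2 (531 CPM), which are the highest of their groups for Meg3 and Miat.

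Levels of the members were ranked against each other per length, on the deposited adjusted RPKM scale. Malat1 had a median of 3970 over the 12 libraries (range 2564 to 6941) and ranked 1 among nuclear-encoded genes in every library. Gas5 followed with a median of 13.6 (6.63 to 22.6), Meg3 with 10.4 (6.54 to 26.4), Snhg11 with 6.44 (3.05 to 16) and Neat1 with 5.24 (1.61 to 17.2). Kcnq1ot1 had a median of 2.32 (1.44 to 2.99) and Pvt1 of 1.85 (0.521 to 4.92). Rian had a median of 0.608, Miat of 0.224 and Mirg of 0.0462. Malat1 stood clear of all others, and each later member overlapped its neighbour in this order over the libraries. Together the other 9 members took from 0.111% to 0.335% of a library's counts. Meg3 took 27.4% to 52.7% of those counts in NonTg and 24% to 32% in P301S. The much longer Kcnq1ot1 took 29.15% to 52.91% in NonTg and 32.56% to 49.08% in P301S. These shares of counts are not corrected for length.

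**Figure D5:**
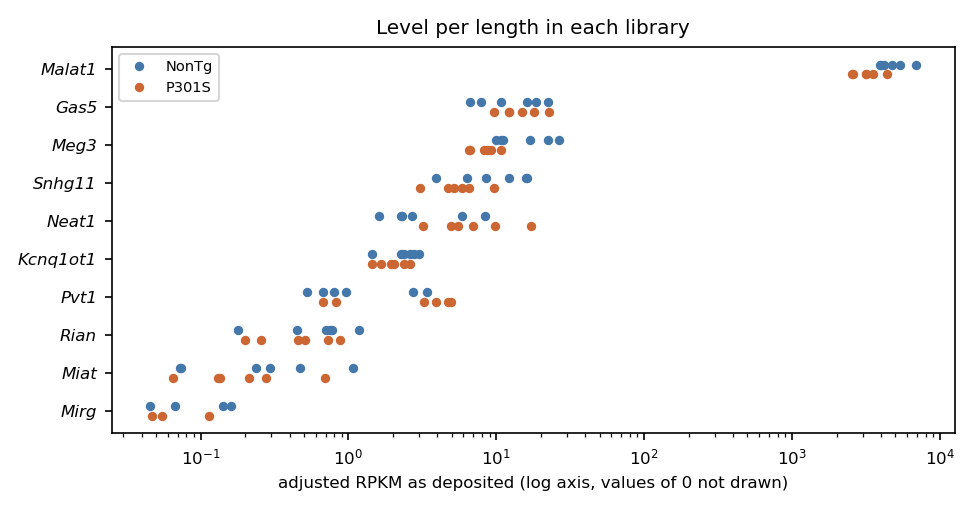
Deposited adjusted RPKM of each long noncoding RNA on a log axis, 1 point per library, with blue for NonTg and orange for P301S and values of 0 not drawn. Malat1 lies between 2564 and 6941, and no other member exceeds 26.4.

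The length by which the authors divided each count was worked out from the ratio of the 2 deposited columns, with Malat1 set to its RefSeq span of 6983 bases. By that measure the length for the unspliced Kcnq1ot1 was 83449 bases, close to its RefSeq span of 83437. The length for Neat1 was 3177 bases, against a span of 20773. The lengths for Meg3 and Rian were 12908 and 3585 bases, and since these genes are spliced, their spans of 30734 and 57772 bases include introns and show nothing about how much of the transcript was counted. For Neat1, whose long and short forms share a start, this is a model of about the length of the short form.

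Patterns across libraries within a genotype were compared with those of 7862 other genes, as Pearson's r of log2 CPM deviations from the group mean over 12 libraries. These values are descriptions, since all genes share the same libraries and scaling, and no test was made. The genes named are those picked for the 3 highest r of so many, and values for Rian rest on 7 to 47 counts per library. For Malat1 the most alike were Ppig, a prolyl isomerase found with splicing factors (0.934), Gm16386 (0.919) and Cacul1 (0.886). For Neat1 they were Ogg1, Dcaf8 and Ss18 (0.901, 0.899 and 0.897), and for Meg3 they were Gm12185, Fibp and Lyrm9 (0.857, 0.852 and 0.845). For Rian they were Ift172, Kif2a and Shank1, the last a synaptic scaffold gene (0.921, 0.867 and 0.862). Kcnq1ot1 was most like a gene without a symbol (0.919), Gpm6b (0.911) and Mex3c (0.873), and Miat was most like Gm33582, Syne2 and Akt2 (0.887, 0.869 and 0.855). Pvt1 was most like Mgat4a, Cdk6 and Ddx17 (0.952, 0.883 and 0.874), Snhg11 like Fgf2, Zbtb11 and Prrt2 (0.922, 0.895 and 0.895) and Gas5 like Stk38, Sp110 and Dcdc2b (0.919, 0.912 and 0.892). These names depend on the minimum mean level of 10 CPM: at a minimum of 20 CPM the most alike gene became Dcaf8 for Neat1, Syne2 for Miat and Zbtb11 for Snhg11, and Fibp and Lyrm9 were no longer listed for Meg3.

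Among the members themselves, Meg3 ran with Snhg11 (r = 0.805) and Miat (0.714) and less closely with Rian (0.594), its neighbour in the imprinted domain. Neat1 ran with Gas5 (0.79), Pvt1 ran against Gas5 (-0.763), and Malat1 and Meg3, the called members, had an r of 0.085.

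Of 30 other well-known long noncoding RNAs listed, 14 were tested, 1 was lower and 0 were higher, with a median log2 fold change of -0.36. The one called was Jpx (chromosome X, 103493558 to 103506425), an activator of Xist, at 65.3 ± 64.9 CPM in NonTg and 10 ± 6.63 CPM in P301S (SD, n = 6). Its NonTg libraries were widely spread and overlapped the P301S libraries. It fell by 2.71 on the log2 scale (SE 0.59, adjusted p = 0.0067), and the call was lost without NonTg 1 (-2.07, adjusted p = 0.054), with limma-voom (-2.19, adjusted p = 0.0531) and with limma on log2 adjusted RPKM plus 1 (-1.29, adjusted p = 0.0764) or plus 0.1 (-2.10, adjusted p = 0.054).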

How the data were processed

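RNA of 12 libraries, 6 per genotype, was deposited as 1 table each. Per the submitters' processing notes, GSNAP and build GRCm38 were used. The GSNAP version, the counter, the annotation release and strandedness were not given in the sources used here. Per the file headers, the count column holds uniquely aligned reads per gene model, and the second column holds RPKM adjusted by the authors with size factors. A RefSeq table of GRCm38.p6, matched by Entrez number, gave gene names, types and 1-based coordinates. The 10 members and all lists were chosen with earlier results of these data known.

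Counts were filtered by filterByExpr (minimum count 10), given TMM factors and then tested in edgeR 4.0.16 (R 4.3.3, robust quasi-likelihood, no covariate), with Benjamini-Hochberg adjustment over all tested genes and a threshold of 0.05. The procedure was tested on simulated data. CPM are means ± SD of 6 libraries, and log2 CPM used a prior count of 2. Shares were compared by exact permutation. Intervals of folds are 95% intervals. Reads carry no molecular identifiers, so a floor of 3 counts covers counting error only.

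Named genes were the members, Mapt, list members past the threshold (otherwise the 2 with the smallest p), the nearest coding gene on each side of a member, the 3 most alike genes, and the 5 largest called increases and decreases among other noncoding genes with a mean of at least 2 CPM. Not every gene that this rule names is reported here. Alternatives were other scalings, filters and library sizes, DESeq2 1.42.0, limma 3.58.1 (voom, and log2 adjusted RPKM), and each library left out. Replicate numbers follow the order of the records and pair nothing.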

Additional observations from a re-analysis of the deposited data

Results flagged for a closer look

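Kcnq1ot1 in NonTg 2 stood apart from the other 5 NonTg libraries. Its log2 CPM was 9.075 (538.4 CPM), the next lowest was 9.742, and this gap was 0.64 of the range of the group, above Dixon's critical value for 6 samples. It was the 1 group of 26 checked that met this limit, and chance gives about 1 in 20.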

How the results depend on the processing

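Each member was refitted under 24 other settings. Malat1 kept its sign in 24 and its call in 17 (log2 fold change -0.668 to -0.457, adjusted p 9.96e-05 to 0.179), and Meg3 kept its sign in 24 and its call in 21 (-1.05 to -0.755, adjusted p 0.00331 to 0.0663). The number of members lower was 2, and it was 1 with limma-voom, 0 with log2 adjusted RPKM and a pseudocount of 1 or 0.1, and 1 to 2 with a library left out. The number higher was 0, and it was 1 with no filter on low counts and 0 to 1 with a library left out. Direction reversed for Miat (0.159 without NonTg 6, range with a library left out -1.18 to 0.159) and for Gas5 (-0.00836 without NonTg 6 and -0.0164 without P301S 5, range -0.0164 to 0.332), neither of which passed in any setting. With a library left out, Neat1 ran from 0.677 to 1.45, Pvt1 from 0.796 to 1.39 and Snhg11 from -1.04 to -0.662. Over all genes 388 passed (61.3% higher), against 1063 with no filter (29308 genes tested, 38.7% higher), 1030 with DESeq2 (15889 genes, 46.2% higher) and 273 to 386 with a library left out. The number of genes tested differed between these settings, and the cause of the differences in calls was not tested. The difference in Malat1 share of counts was -5.69 to -4.32 percentage points with a library left out. Other scalings moved the median of all genes by at most 0.0462 in size. No paired analysis was possible because the replicate numbers only follow the order of the records. Counts per library limit Rian (7 to 47), Miat (4 to 158) and Mirg (0 to 1).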

Other observations

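Among other tested noncoding RNA genes, 4 were higher in P301S and 16 were lower by edgeR's quasi-likelihood test. Of the increases, Gm32673 (chromosome 6, 125430930 to 125459723) was at 0.852 ± 0.777 CPM in NonTg and 16.1 ± 7.48 CPM in P301S (SD, n = 6), and A930002C04Rik (chromosome 13) was at 1.32 ± 2.14 and 14.6 ± 3.99 CPM. Both NonTg means lie within the 0.805 to 2.74 CPM that 3 counts stand for in the NonTg libraries, so no fold is given, and their calls describe genes that were measurable mainly in P301S. The A930002C04Rik call was lost without any 1 of NonTg 1, NonTg 5, P301S 1 or P301S 6 (adjusted p 0.0512 to 0.0564). Gm30845 (2.44, adjusted p = 0.0367) and Gm32643 (1.34, adjusted p = 0.0314) passed with fewer of the settings. The Gm30845 call was lost without any 1 of NonTg 2, NonTg 3, NonTg 4, NonTg 6, P301S 1, P301S 2, P301S 4 or P301S 5 (adjusted p 0.0559 to 0.0834). The Gm32643 call was lost without any 1 of NonTg 2, NonTg 4, NonTg 6, P301S 1, P301S 4 or P301S 6 (adjusted p 0.0512 to 0.092).

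Of the decreases, Gm33578 (chromosome 8, 105682256 to 105686220) went from 25.9 ± 14.4 to 4.35 ± 2.36 CPM (-2.59, SE 0.63, adjusted p = 0.0146), with every P301S library below every NonTg library, and lost its call without NonTg 5 (adjusted p = 0.0512). Gm35247 (-3.44, adjusted p = 5.39e-05) and Gm36774 (-3.63, adjusted p = 0.00519) were called in all 24 other settings. In P301S, Gm36774 was at 2.42 ± 2.85 CPM and Gm9530 at 3.83 ± 4.39 CPM. These levels are near the 0.814 to 1.94 CPM that 3 counts stand for in P301S libraries, so the size of both folds is uncertain. Gm9530 (-3.03, adjusted p = 0.0485) was called in 9 of them, and without a library only where NonTg 1, NonTg 6 or P301S 4 was the one left out (highest adjusted p otherwise 0.133, without NonTg 5).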
